A study of Rattus norvegicus with 16 samples.

Results

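The postsynaptic scaffold and synaptic adhesion genes described here are a named set of 29 rat genes: scaffold proteins of the postsynaptic density, subunits of the calcium/calmodulin-dependent kinase CaMKII, and adhesion proteins that span the synaptic cleft. They were chosen by name, with earlier results of these data known, and 28 of the 29 were matched among the 33294 genes of the count table. Lrrtm1 was not analysed here. All 28 passed the filter on low counts that left 17856 genes for testing, and the lowest count of any of them in a library was 78 (Lrfn2). The libraries were made from poly(A) RNA of tissue labelled central amygdala, a GABAergic nucleus of the amygdala. It was taken from adult rats that had received saline or the synthetic opioid fentanyl in the perinatal period. All animals shared a later series of sessions, named by an abbreviation that the labels do not spell out, and tissue was taken 1 day after the last of them. Each exposure had 8 of the 16 libraries, 6 from males and 2 from females, all labelled as offspring, with no strain given. Litters are not given in the labels, so the p-values measure the spread between these libraries and do not allow for shared litters.

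At an excitatory synapse, Dlg scaffolds hold glutamate receptors and adhesion proteins at the membrane, Dlgap proteins bind the Dlg proteins, and Shank and Homer proteins connect that layer to deeper scaffolds and to metabotropic receptors. CaMKII, built mostly from the Camk2a and Camk2b subunits in forebrain neurons, is activated by calcium entry and phosphorylates receptors and scaffolds during plasticity. Presynaptic neurexins and receptor phosphatases bind postsynaptic neuroligins, Lrrtm proteins and Il1rapl1, and these pairs align release sites with the density. Several of the scaffold genes are strongly expressed in the spiny projection neurons of the striatum, which borders the central amygdala.

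Total counts ranged from 12879701 to 22426428 per library. Levels are given as CPM, counts per library total after TMM scaling, and they depend on transcript length, so levels were not compared between genes. The saline males carry the library numbers 1, 2 and 9 to 12 in the labels, the fentanyl males 1 to 6, the fentanyl females 1 and 2, and the saline females 10 and 11. What the numbers stand for is not given in the labels. Some libraries stood apart from the rest of their group. Of the 28 genes, 10 had their lowest level in fentanyl male replicate 2 and 11 in saline male replicate 6, while 8 were highest in saline male replicate 3 and 8 in fentanyl female replicate 2. All 13 central amygdala and GABAergic markers tested were detected in every library, among them Prkcd at 11.2 to 33.3 CPM and Crh at 0.521 to 17.2 CPM. Markers of striatal spiny neurons were detected in every library as well, with Drd1 at 92.6 to 344 CPM. Their mean log2 CPM was 8.24 and 8.72 in the saline males numbered 1 and 2, against 6.75 to 7.56 in those numbered 9 to 12, 7.99 to 8.61 in fentanyl males. Females had 8.58 and 8.97 after fentanyl and 7.81 and 8.04 after saline. The myelin list ran the other way, at 7.38 and 7.74 in saline males 1 and 2, 7.98 to 9.33 in saline males 9 to 12, and 8.34 to 8.99 in fentanyl males, with 7.38 and 8.56 in females after fentanyl and 9.02 and 9.12 after saline. The cortical and basolateral glutamatergic list was highest in saline male replicate 3, at a mean log2 CPM of 2.42, and at most 0.82 in every other library. Of that list, Neurod1 was at 0 in 5 libraries, Neurod2 in 1 and Emx1 in 7. In bulk tissue, fewer cells of a type and less RNA per cell cannot be told apart.

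**Figure D1:**
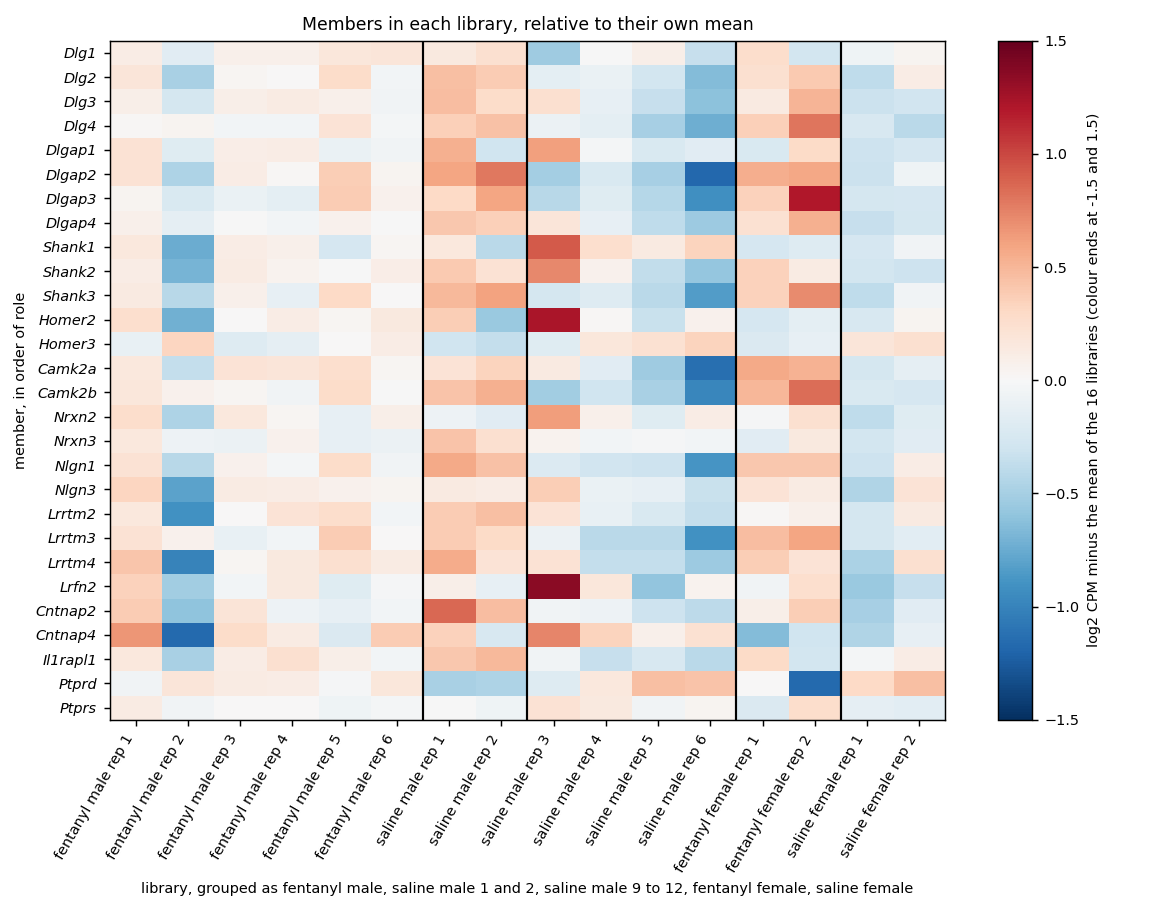
Level of each of the 28 genes (rows, ordered by role) in each of the 16 libraries (columns), as log2 CPM minus the mean of that gene over all libraries; red is higher and blue is lower. Fentanyl male replicate 2 and saline male replicate 6 are blue for most genes, while both saline males numbered 1 and 2 and both fentanyl females are red for most of the Dlg, Dlgap and CaMKII rows.

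RefSeq promoter sequences of the GRCr8 assembly were matched for 19 of the 28 genes, with 21 promoters in all, and were read over the 250 bases before each start. The counts were built on the rn7 assembly, so these windows describe the genes and not the libraries. Cntnap2, Cntnap4, Dlg3, Dlgap2, Homer2, Nrxn2, Nrxn3, Shank1 and Shank2 had no entry. The GC box GGGCGG, searched on both strands, was found in 3 of the 21 promoters (14.3%), against 30.5% of all 33469 promoters of that length. These 3, of Camk2b, Dlgap4 and Ptprd, are shown because they are the member promoters with that motif. A further reason is that fold changes of these genes in females and between saline males are given further on. None in females and not all between saline males passed the threshold used there. Camk2b lies at chr14:85147945-85148194 on the minus strand with 5 matches. Dlgap4 lies at chr3:165584110-165584359 on the plus strand with 2. The Ptprd window at chr5:97415499-97415748 on the minus strand also has 5, some of them overlapping. Its other promoter in the table has none. With the 50 bases after the start included, 5 of the 21 promoters (23.8%) held the motif, those of Dlg1 and Ptprs as well, against 33.1% of all. Capitals mark the GC boxes, written GGGCGG or, on the opposite strand, CCGCCC.
Camk2b: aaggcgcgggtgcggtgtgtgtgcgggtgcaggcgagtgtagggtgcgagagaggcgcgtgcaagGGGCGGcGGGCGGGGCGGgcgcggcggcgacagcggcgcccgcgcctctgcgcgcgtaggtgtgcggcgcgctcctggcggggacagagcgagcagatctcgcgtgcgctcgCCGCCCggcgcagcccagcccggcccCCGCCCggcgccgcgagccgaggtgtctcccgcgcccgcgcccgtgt
Dlgap4: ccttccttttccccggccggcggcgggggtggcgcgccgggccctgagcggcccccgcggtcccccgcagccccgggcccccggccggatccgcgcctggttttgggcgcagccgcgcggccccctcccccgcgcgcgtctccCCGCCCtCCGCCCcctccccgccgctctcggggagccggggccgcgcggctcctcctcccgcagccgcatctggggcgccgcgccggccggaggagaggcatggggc
Ptprd: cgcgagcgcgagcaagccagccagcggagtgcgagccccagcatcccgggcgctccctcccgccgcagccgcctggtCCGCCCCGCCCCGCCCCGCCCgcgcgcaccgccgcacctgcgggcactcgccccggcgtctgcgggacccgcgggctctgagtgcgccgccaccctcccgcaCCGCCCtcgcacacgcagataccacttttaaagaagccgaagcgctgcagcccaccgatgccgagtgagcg
In all 7 motifs were searched, each on both strands. The cAMP response element TGACGTCA was present in 2 of the 21 promoters (9.52%), those of Ptprs and Lrrtm2, and in 1.59% of all promoters. CCAAT was present in 28.6% of the member promoters and 34% of all, the TATA box TATAAA in 9.52% and 12.9%, and the E-box CACGTG in 9.52% and 5.59%. The palindromic core of the NRF1 motif was found in 0 of the 21 and in 0.762% of all promoters, and CAGCACC, a stretch of the RE1 element, in 0 of the 21 and in 5.43% of all. A match is a description of letters in this window and not of a bound site.

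Whether the perinatal exposure left a difference in these transcripts in adulthood was asked with all 8 libraries of each exposure. None of the 28 genes passed the threshold in either direction, with sex as a term (edgeR quasi-likelihood test, Benjamini-Hochberg adjusted p under 0.05), where 0.0784% of all genes tested did. Lrrtm3, an excitatory adhesion protein, was the 1 member at an unadjusted p under 0.05, a level that 7.27% of all genes reached. Log2 fold changes, fentanyl over saline, ran from -0.29 (Shank1) to 0.37 (Camk2b), with a median of 0.04 against -0.01 over all genes tested, and 19 of the 28 were above 0. No member had all fentanyl libraries above all saline libraries (0.0616% of all genes did) or below them (0.0392%), and intervals of 2 standard errors around the 28 values lay within -0.65 and 0.77. The result differed by method for 6 genes. DESeq2 also called none of the 28 (0.487% of all genes), but limma voom with sample quality weights called Camk2a, Camk2b, Dlgap2, Lrrtm3, Lrrtm4 and Nlgn1 higher, where it called 3.81% of all genes higher. None of the 16 striatal list genes passed the threshold, but all 16 had a log2 fold change above 0 (median 0.54), and 8 were at an unadjusted p under 0.05. With the means of the striatal and myelin lists as covariates, added once the data had been seen, the median of the 28 was 0.097 and no member was called (0.056% of all genes were).

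Among the Dlg scaffolds, Dlg4, which encodes the major scaffold of the postsynaptic density, had 709, 731 and 843 CPM (lowest, median, highest) in the 6 fentanyl males and 444, 677 and 991 CPM in the 6 saline males. The fentanyl females had 933 and 1266 CPM and the saline females 630 and 555 CPM. All fentanyl males sat in a gap of the saline male values, which lay both below and above them, while the females of the exposures did not overlap. The fold change of Dlg4 over both sexes was 0.28 ± 0.17 (log2, SE; adjusted p = 0.767). Dlg1, a scaffold also found at non-synaptic membranes, had 183, 218 and 230 CPM in fentanyl males and 141, 209 and 240 CPM in saline males. Its fentanyl females, at 245 and 167 CPM, lay on either side of the saline females, at 197 and 210 CPM. Dlg2 and Dlg3, close relatives that also anchor receptors, ranged from 238 to 508 CPM and from 98.6 to 209 CPM over all libraries. Both were lowest in saline male replicate 6. 

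The Dlgap genes encode guanylate kinase-associated proteins that bridge Dlg and Shank. Dlgap3, the member of this family most closely tied to corticostriatal synapses, had 310, 355 and 470 CPM in fentanyl males and 193, 296 and 545 CPM in saline males. In females it had 459.5 and 823 CPM after fentanyl and 305 and 305 CPM after saline, so fentanyl female replicate 2 held the highest level of all 16. Its fold change over both sexes was 0.34 ± 0.21 (adjusted p = 0.770). Dlgap4 had 154, 166 and 176 CPM in fentanyl males, a narrow range inside that of the saline males, at 116, 172 and 223 CPM. Dlgap2 had 81.7, 118 and 145 CPM in fentanyl males and 50.1, 87.4 and 193 CPM in saline males, so its saline males were the more spread here too. Dlgap1 ranged from 92.3 to 175 CPM, with both ends in saline males.

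Shank1, a master scaffold below the Dlgap layer, had the most negative fold change of the 28. It had 178, 304 and 331 CPM in fentanyl males and 222, 341 and 558 CPM in saline males, and the groups overlapped. In females it had 247 and 255 CPM after fentanyl and 250.4 and 286 CPM after saline. The fold change over both sexes was -0.29 ± 0.16 (adjusted p = 0.735). Shank3, the Shank gene with prominent striatal expression, had 235, 319 and 381 CPM in fentanyl males and 176, 266 and 472 CPM in saline males, with 393 and 501 CPM in females after fentanyl and 242 and 301 CPM after saline. Shank2 ranged from 95.7 to 255 CPM, from fentanyl male replicate 2 to saline male replicate 3. Homer2, an adaptor that links Shank to metabotropic glutamate receptors, had 10.7, 18.3 and 21 CPM in fentanyl males and 11.8, 18.1 and 41 CPM in saline males. The highest value was that of saline male replicate 3, and without that library the fold change of Homer2 over both sexes went from -0.23 ± 0.21 (adjusted p = 0.829) to 0.0066. Homer3, an adaptor of the same family, ranged only from 11.8 to 19.2 CPM.

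Camk2a and Camk2b, the main CaMKII subunits, came next after Lrrtm3 by p over both sexes. Camk2a had 901, 1290 and 1367 CPM in fentanyl males and 529.8, 1146 and 1447 CPM in saline males. Females had 1697 and 1629 CPM after fentanyl and 969 and 1044 CPM after saline. The lowest level of each group of males came from fentanyl male replicate 2 and saline male replicate 6. Camk2b had 777, 841 and 975 CPM in fentanyl males against 415, 616 and 1165 CPM in saline males, and 1136 and 1430 CPM in fentanyl females against 701 and 681 CPM in saline females. The fentanyl males sat in a gap of the saline male values, above 4 of them and below the other two. Over both sexes the fold changes were 0.33 ± 0.18 for Camk2a (adjusted p = 0.733) and 0.37 ± 0.19 for Camk2b (adjusted p = 0.729).

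Of the neurexins, which are presynaptic, Nrxn3 had 194, 199.9 and 236 CPM in fentanyl males and 205, 213 and 285 CPM in saline males, with 187 and 231 CPM in females after fentanyl and 177 and 187 CPM after saline. Nrxn2 ranged from 212 to 447 CPM, again from fentanyl male replicate 2 to saline male replicate 3. Nlgn1, a neuroligin of excitatory synapses, had 56.6, 76.1 and 90.8 CPM in fentanyl males and 41.2, 63.6 and 112 CPM in saline males. Nlgn3, a neuroligin found at excitatory and inhibitory synapses, ranged from 67.2 to 151 CPM. For neither neurexin nor neuroligin did the exposures separate in males.

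Lrrtm3, one of the leucine-rich repeat proteins that bind neurexins, had 69.5, 76.7 and 96.9 CPM in fentanyl males and 40.3, 63.3 and 97.4 CPM in saline males. Fentanyl females had 103 and 111 CPM and saline females 62.8 and 67.0 CPM. The male groups overlapped and the female groups did not. Its fold change over both sexes was 0.35 ± 0.16 (adjusted p = 0.671). Lrrtm2 and Lrrtm4, of the same family, ranged from 28.7 to 72.8 CPM and from 10.2 to 30.1 CPM, and both were lowest in fentanyl male replicate 2. Lrfn2, a leucine-rich repeat protein that binds Dlg4, had 5.6, 7.82 and 10.2 CPM in fentanyl males and 5.22, 8.48 and 20.7 CPM in saline males. Saline male replicate 3 alone gave the value of 20.7 CPM.

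Cntnap4, a neurexin-like protein of interneurons, had 7.76, 20.1 and 27.6 CPM in fentanyl males and 14.7, 21.4 and 29 CPM in saline males, with 11 and 14 CPM in females after fentanyl and 12.9 and 16.1 CPM after saline. Its fold change over both sexes was -0.18 ± 0.20 (adjusted p = 0.855). Cntnap2, which clusters potassium channels along axons, ranged from 136 to 375 CPM, and Il1rapl1, a postsynaptic partner of Ptprd, from 12.9 to 25.2 CPM. Ptprd, a presynaptic receptor phosphatase, had 228, 258 and 270.4 CPM in fentanyl males and 170 to 322 CPM in saline males, around a median of 236 CPM. Fentanyl females had 236 and 104 CPM and saline females 294 and 325 CPM, so fentanyl female replicate 2 was the lowest library of all. The fold change of Ptprd over both sexes was -0.17 ± 0.19 (adjusted p = 0.855), and -0.022 without that library. Ptprs, a related phosphatase, varied least of the 28, with a coefficient of variation of 9.22% over the 16 libraries and a range from 326 to 451 CPM. Lrfn2 varied most, at 42.2%.

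**Figure D2:**
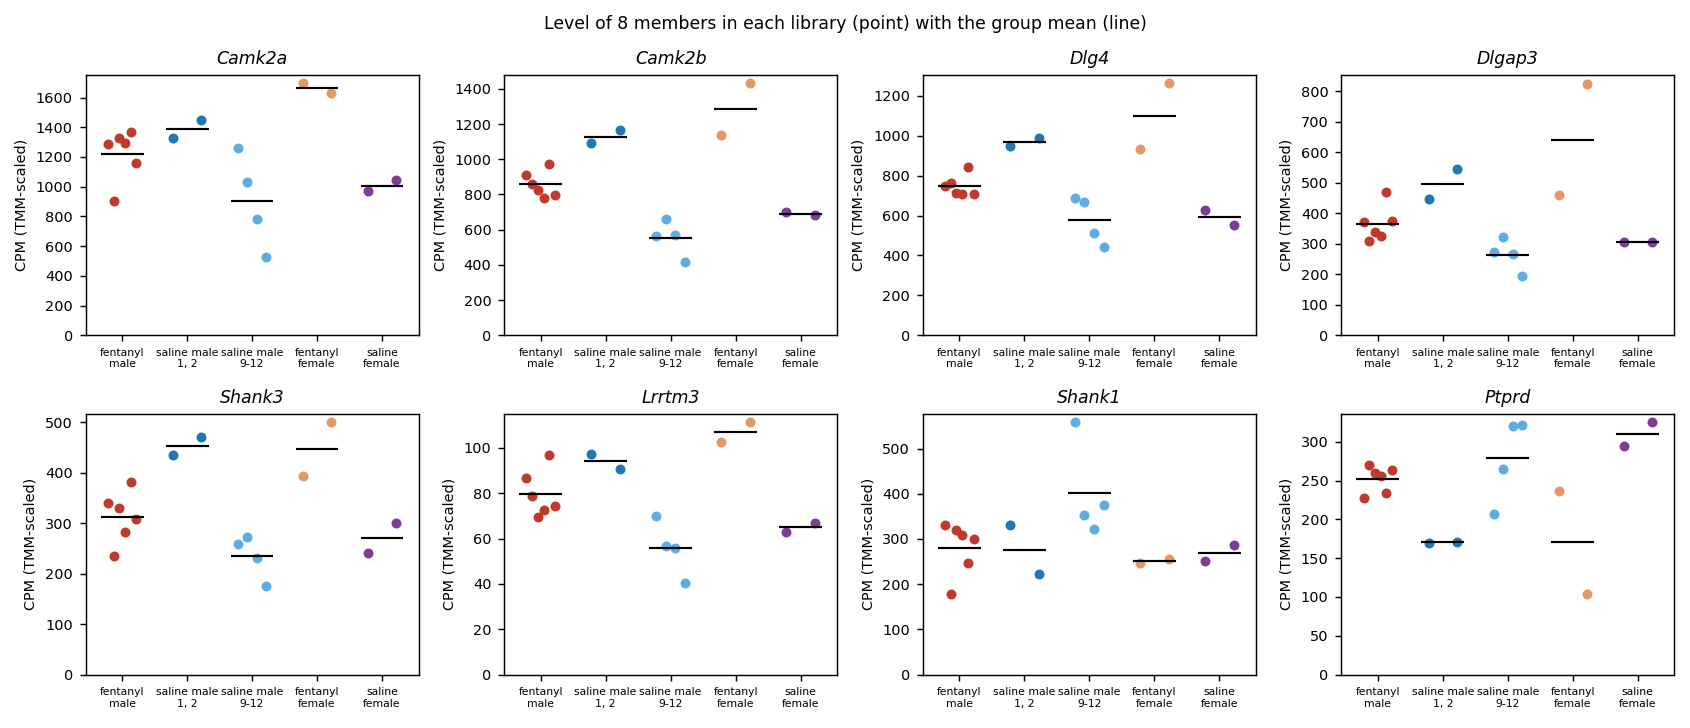
Level of 8 of the genes in CPM (vertical axis, from 0) in every library; each point is 1 library and each line a group mean, with saline males split by library number. For Camk2b and Dlg4 all fentanyl males lie below both saline males numbered 1 and 2 and above all 4 numbered 9 to 12.

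In males, none of the 28 genes passed the threshold (0.0392% of all genes did, in the edgeR quasi-likelihood test), none reached an unadjusted p under 0.05 (4.13% of all genes did), and neither DESeq2 (0.241% of all genes) nor limma voom (0.487%) called any. No member had male groups that did not overlap (0.224% of all genes were wholly higher after fentanyl and 0.151% lower). The fold changes were split evenly, 14 above and 14 below 0, with a median of -0.01, as over all genes. That split rested on single libraries: 6 were above 0 without saline male replicate 6 and 17 without saline male replicate 1 or 3. It was 21 by voom, with a median of 0.15, and 22 without fentanyl male replicate 2 and saline male replicate 3 together. The comparison shares its saline males with the one over both sexes. Shank1, at -0.36 ± 0.19 (adjusted p = 1.000), had the smallest p, followed among the lower genes by Nrxn3 at -0.14, Lrfn2 at -0.33 and Homer2 at -0.26. Without saline male replicate 3, Lrfn2 was at 0.036 and Homer2 at 0.056, so those directions rested on that library. The higher genes with the smallest p were Lrrtm3 at 0.22, Camk2a at 0.20, Camk2b at 0.20 and Dlg1 at 0.12. Intervals of 2 standard errors for the 28 genes lay within -0.86 and 0.62. 

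In females, 2 libraries per exposure, most of the genes were higher after fentanyl: 22 of 28 fold changes were above 0, with a median of 0.39 against -0.01 over all genes. None passed the threshold in the edgeR quasi-likelihood test (0% of all genes did), and neither DESeq2 (0.112%) nor limma voom (0%) called any. At an unadjusted p under 0.05 there were 7, 6 higher and 1 lower, where 14.3% of all genes reached that level. In 16 genes both fentanyl females were above both saline females, and in 2, Ptprd and Homer3, both were below, against 24.1% and 24.7% of all genes. The fentanyl females carry the library numbers 1 and 2 and the saline females 10 and 11, so exposure and library number cannot be told apart in females. The higher genes with the smallest p were Dlg4 at 0.89 ± 0.30, Dlgap3 at 1.07 ± 0.38, Dlgap4 at 0.68 ± 0.25 and Camk2b at 0.89 ± 0.37, with adjusted p of 0.333 to 0.337. Dlgap3 had the highest fold change of the 28 with all libraries, but it was at 0.59 without fentanyl female replicate 2, below Camk2b (0.72) and Dlg4 (0.66) in the same fit, and at 1.43 without fentanyl female replicate 1. Dlgap4 had 196 and 239.7 CPM after fentanyl and 133 and 139 CPM after saline. On the lower side, Ptprd was at -0.86 ± 0.34 (adjusted p = 0.333), Homer3 at -0.41 ± 0.23, Cntnap4 at -0.21 and Homer2 at -0.13. Ptprd was at -0.39 without fentanyl female replicate 2 and at -1.57 without fentanyl female replicate 1. Cntnap4 was at -0.044 without fentanyl female replicate 1. Homer3 had 12.9 and 13.7 CPM after fentanyl and 17.3 and 17.9 CPM after saline. No gene of the marker lists named here passed the threshold in females. All 16 striatal genes were above 0, with a median of 0.86 and 2 at an unadjusted p under 0.05. All 14 myelin genes (median -0.99, 2 at that level), all 12 astrocyte genes (median -0.46, 4) and all 10 microglia genes (median -0.53, 2) were below 0. With the striatal and myelin means as covariates, 14 of the 28 genes were above 0 and their median was 0.0054, while in males the same fit gave 16 above 0 and a median of 0.073. Both list means themselves separated the exposures in females, so there the fit could not tell an exposure difference from a list difference. The part of astrocytes and microglia in the member values was not tested.

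The difference of the exposure effect between the sexes was tested directly. No member passed in the edgeR quasi-likelihood test (0% of all genes did), and neither DESeq2 (0.0224%) nor limma voom (0%) called one. At an unadjusted p under 0.05 there were 4, where 8.23% of all genes reached that level: Dlgap4 (0.71 ± 0.29), Dlg4 (0.81 ± 0.35) and Dlgap3 (0.97 ± 0.44) were more positive in females and Ptprd (-0.92 ± 0.39) more negative, each with an adjusted p of 0.570. Without fentanyl female replicate 2, Dlgap3 was at 0.49 and Ptprd at -0.44, and without fentanyl female replicate 1 they were at 1.33 and -1.63. The median of the 28 was 0.41, and with the 2 marker lists as covariates it was -0.04. Between the sexes, with exposure as a term, none of the 28 was called either (0.056% of all genes were). Neither DESeq2 (0.0672%) nor limma voom (0.084%) called one. The 1 member at an unadjusted p under 0.05 (2.52% of all genes) was Cntnap4, at -0.57 ± 0.23 in females relative to males (adjusted p = 1.000). Shank1 at -0.29, Dlgap3 at 0.37 and Nrxn3 at -0.15 followed by p. 

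**Figure D3:**
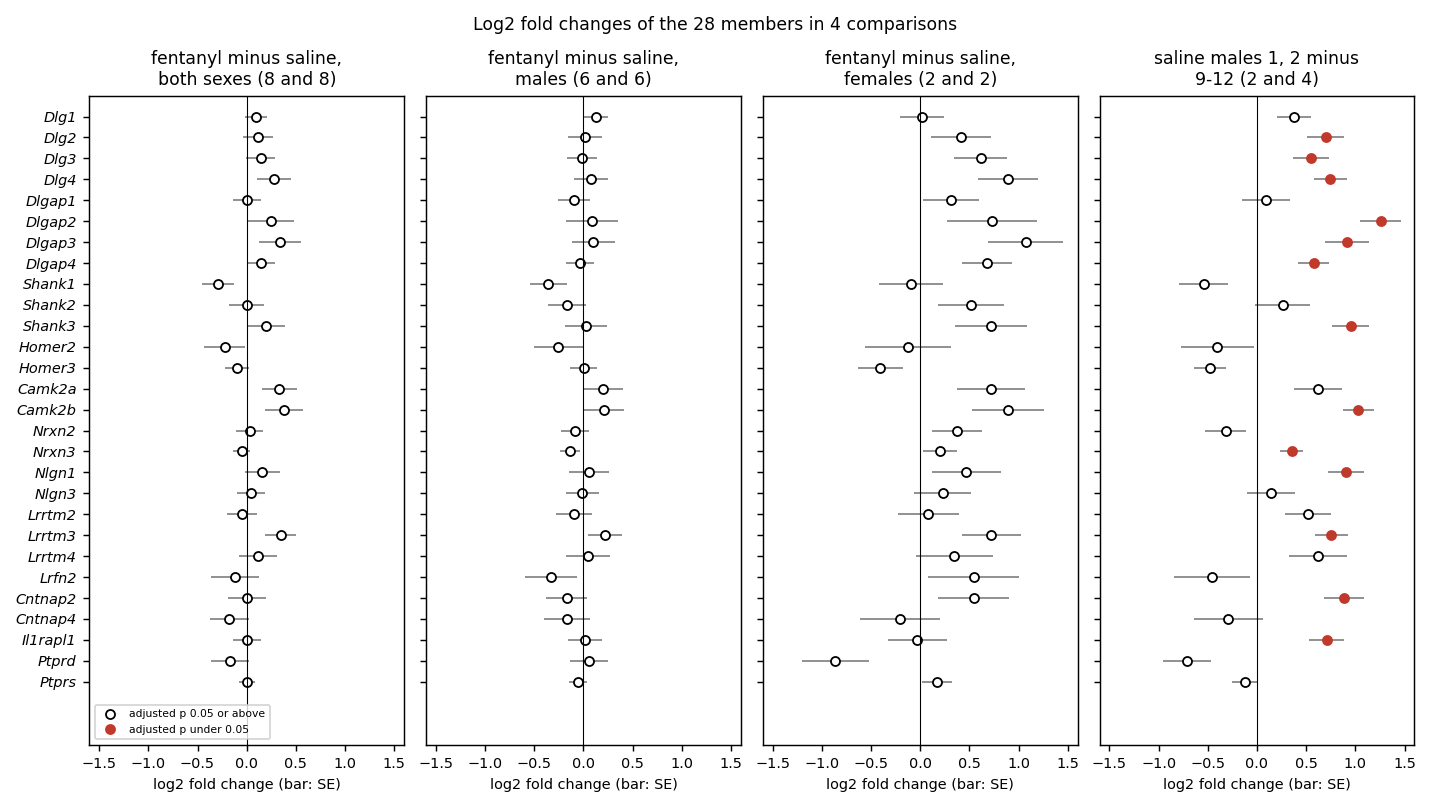
Log2 fold change of each of the 28 genes with its standard error (bar) in 4 comparisons; filled red points passed an adjusted p of 0.05. Open points fill the 3 exposure panels, and the 13 red points all lie to the right in the comparison of the saline males numbered 1 and 2 with those numbered 9 to 12.

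More of the genes were called among the control libraries, although some fold changes, such as those of Dlg4 and Dlgap3, were larger in females. In the saline males numbered 1 and 2, 13 of the 28 genes were higher than in those numbered 9 to 12 and none was lower (edgeR quasi-likelihood test in a fit of 5 groups). In that comparison 17.9% of all genes were called in either direction with 8.27% higher and 9.66% lower. Earlier results of these data had shown that the sets differ, so the count describes the controls and is not independent evidence. The median of the 28 was 0.54 against -0.01 over all genes. At an unadjusted p under 0.05 there were 19, 16 higher and 3 lower, against 31.6% of all genes. In 16 genes both libraries numbered 1 and 2 were above the other 4, and in 2 (Ptprd and Homer3) below, against 22.6% and 22.2% of all genes.

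Scaffolds and CaMKII led the higher genes. Camk2b had 1093 and 1165 CPM in saline males 1 and 2 and 562, 660.3, 572 and 415 CPM in saline males 9 to 12, a difference of 1.03 ± 0.16 (adjusted p = 0.00151). Dlgap2 had 169.6 and 193 CPM against 78.8, 96.1, 78.5 and 50.1 CPM, the largest difference at 1.26 ± 0.21 (adjusted p = 0.00228). Shank3 had 436 and 472 CPM against 258, 273, 231 and 176 CPM (0.95 ± 0.19, adjusted p = 0.00526). In each of these 3 genes the sets did not overlap, and saline male replicate 6, numbered 12, was the lowest. Dlg4 had 947 and 991 CPM against 688, 666, 514 and 444 CPM (0.74 ± 0.17, adjusted p = 0.00901), and Dlgap3 had 446 and 545 CPM against 272, 321, 266 and 193 CPM (0.91 ± 0.22, adjusted p = 0.0123). Dlgap4 (0.57 ± 0.15, adjusted p = 0.0194), Dlg2 (0.70 ± 0.19, adjusted p = 0.0203) and Dlg3 (0.55 ± 0.18, adjusted p = 0.0491) completed the called scaffolds. Camk2a did not pass, at 0.62 ± 0.24 (adjusted p = 0.0921).

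Of the adhesion genes, 5 were called. Nlgn1 had 112 and 102 CPM in saline males 1 and 2 against 65.3, 61.8, 60 and 41.2 CPM in saline males 9 to 12 (0.90 ± 0.19, adjusted p = 0.00622). Lrrtm3 had 97.4 and 90.7 CPM against 70.1, 56.5, 55.8 and 40.3 CPM (0.76 ± 0.17, adjusted p = 0.00872). In neither gene did the sets overlap. Cntnap2 (0.88 ± 0.21, adjusted p = 0.0107), Il1rapl1 (0.71 ± 0.18, adjusted p = 0.0157) and Nrxn3 (0.35 ± 0.11, adjusted p = 0.0446) were the others. Ptprd, at 170 and 171 CPM against 208, 265, 321 and 322 CPM, differed by -0.71 ± 0.24 without passing (adjusted p = 0.0557), and Homer3 by -0.48 ± 0.17 (adjusted p = 0.0565). DESeq2 called the same 13 genes higher (9.54% of all genes) and these 2 lower (11.9%).

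The size of the called set rested on the libraries numbered 1 and 2. Without saline male replicate 1, 5 of the 13 genes passed (Camk2b, Dlg4, Dlgap2, Dlgap3 and Shank3; 3.58% of all genes were higher), and without saline male replicate 2 only Camk2b did (0.72%). The calls nearest the threshold were the least stable. That of Dlg3 was lost in 12 of the 16 fits that left out 1 library, with RLE size factors and without the filter on low counts. That of Nrxn3 was lost in 11 of the 16 and without the filter. Beside these differences, 14 of 16 striatal genes were higher in saline males 1 and 2 (8.27% of all genes were). Lower there were 12 of 14 myelin genes and 6 of 12 astrocyte genes (9.66% of all genes were). So were 3 of 12 pan-neuronal, 3 of 10 microglia, 3 of 7 cortical and basolateral glutamatergic and 1 of 13 central amygdala and GABAergic genes. In a fit that also held the means of these striatal and myelin genes, added once the data had been seen, none of the 28 genes and 0% of all genes were called. The median of the 28 was then -0.05. Both list means themselves separated the 2 saline male sets, so this fit could not tell a set difference from a list difference. The 13 fold changes did not all shrink: Il1rapl1 was at 0.85 ± 0.40 and Cntnap2 at 0.48 ± 0.38, each with a wider error, while Camk2b was at 0.16 and Dlgap3 at -0.51.

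Fentanyl males lay between the 2 sets of controls for many members. Camk2b and Dlg4 had all 6 fentanyl males below both saline males 1 and 2 and above all 4 saline males 9 to 12, which 0.745% of all genes did. The fentanyl male mean lay between the means of the 2 sets in 17 genes that were higher in numbers 1 and 2 (29.5% of all genes) and in 6 that were lower there (31.7%). The sign of the exposure difference in males changed with the saline males used. With saline males 1 and 2 alone as male controls, 17 of the 28 fold changes in males turned sign, 12 of them to below 0, and 7 turned with saline males 9 to 12 alone. With saline males 9 to 12 alone as male controls, 7 genes were higher after fentanyl over both sexes (4.23% of all genes were higher): Camk2b (0.72 ± 0.11, adjusted p = 0.00407), Lrrtm3 (0.58), Dlgap2 (0.67), Dlg4 (0.53), Dlgap3 (0.65), Shank3 (0.51) and Nlgn1 (0.44). In males alone this left Camk2b, at 0.64 (adjusted p = 0.0489, 0.321% of all genes higher). In these 2 fits every saline library was numbered 9 to 12 and every fentanyl library 1 to 6. Exposure and library number could not be told apart there. With saline males 1 and 2 alone as male controls, no member was called over both sexes (0.0229% of all genes). In males Dlgap2, at -0.63 (adjusted p = 0.0449), and Dlgap4, at -0.39 (adjusted p = 0.0404), were lower (2.14% of all genes were), and Camk2b was at -0.40 (adjusted p = 0.0795).

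**Figure D4:**
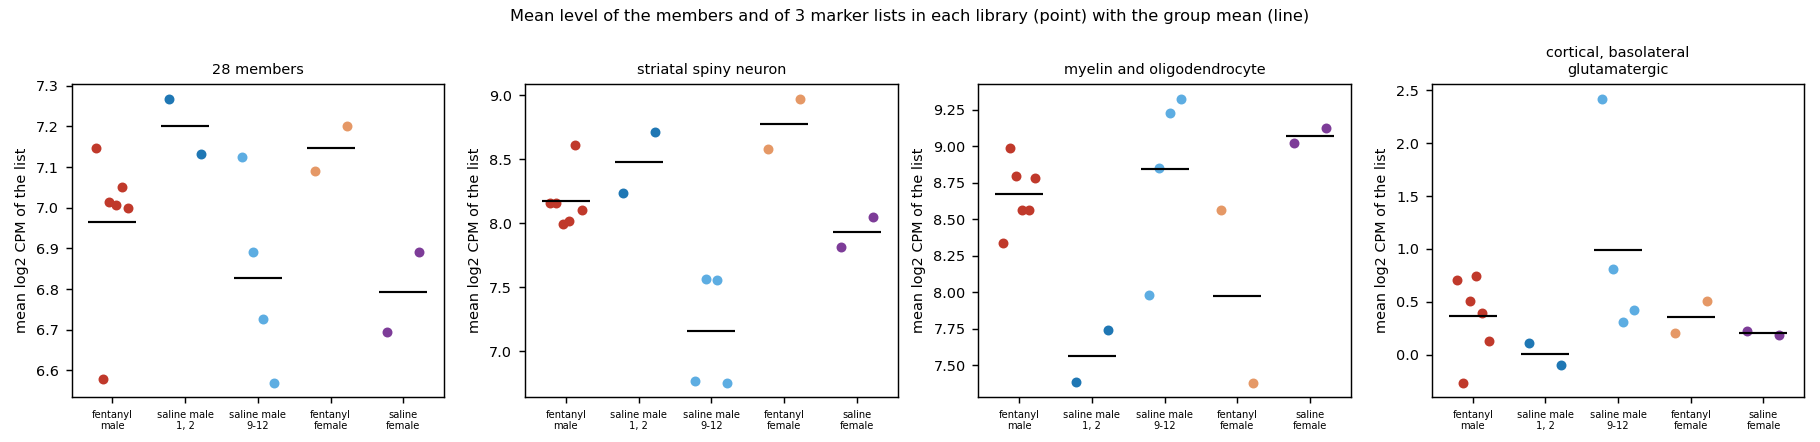
Mean log2 CPM of the 28 genes and of 3 marker lists in every library (points) with group means (lines), with saline males split by library number. In the striatal panel both saline males numbered 1 and 2 lie above all 4 numbered 9 to 12, and in the myelin panel both lie below.

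Other genes of the same synaptic layers were read from 3 lists. None of 35 other postsynaptic scaffold and signalling genes, 43 other synaptic adhesion genes or 14 inhibitory postsynaptic genes was called over both sexes by the edgeR quasi-likelihood test. Of all genes, 0.0784% were. The medians of the 3 lists were 0.11, 0.05 and 0.09. The genes with the smallest p were Mpp3, a scaffold relative of the Dlg proteins, at 0.42 ± 0.10 (adjusted p = 0.195), with Nrgn at 0.76 and Camk2n1 at 0.48 in the scaffold list. In the adhesion list they were Flrt2 at 0.43 ± 0.11 (adjusted p = 0.309), Clstn1 at 0.20 and Cntnap1 at 0.28, and in the inhibitory list Insyn1 at 0.37, Nptn at 0.25 and Insyn2a at -0.44. Between the saline male sets, 8.27% of all genes were higher and 9.66% lower in numbers 1 and 2. The scaffold list had 14 of 35 genes higher and 4 lower there. Homer1, the Homer gene that complements Homer2 and Homer3, was 1.17 ± 0.18 higher (adjusted p = 0.00164) and Arc, an activity-induced postsynaptic gene, 1.53 ± 0.35 (adjusted p = 0.00992). Among the others higher were Ppp1r9a, Anks1b, Sorbs2, Baiap2, Sipa1l1, Cnksr2, Agap2, Kalrn, Ppp1r9b, Begain and Dclk1, from 0.58 (Dclk1) to 1.21 (Cnksr2). The CaMKII subunits of this list ran opposite to Camk2a and Camk2b, with Camk2g at -0.80 ± 0.15 (adjusted p = 0.00339) and Camk2d at -1.39 ± 0.44 (adjusted p = 0.0394). The CaMKII inhibitor Camk2n2 was lower as well, at -1.79. Tanc1 was the other lower gene. The adhesion list had 7 higher (Flrt3, Lrrc4c, Slitrk4, Adgrl1, Ntrk3, Adgrl2 and Slitrk5) and 7 lower (Nectin3, Lrfn1, Il1rap, Clstn2, Cbln1, Nectin1 and Ncam1), from -2.34 (Cbln1) to 0.78 (Flrt3), with a median of -0.01. The inhibitory list had 6 higher (among them Shisa7, Slitrk3, Nptn, Gphn and Igsf9b) and 3 lower (Igsf21, Mdga1 and Iqsec3). Gephyrin, encoded by Gphn, is the main scaffold of inhibitory synapses, and it was 0.31 ± 0.10 higher (adjusted p = 0.0362).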

How the data were processed

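Reads per gene were counted by the authors in 16 libraries, and the deposited values are whole-number counts with no normalization, 1 column per library. The submitters' processing notes name rn7 and the tools STAR, HTSeq, Trimmomatic and DESeq2. No version, annotation or strand setting is stated, so reads of a gene and of its overlapping or antisense partner may be mixed. Columns were matched to samples by library name, with 0 columns unmapped and 0 rows that named no gene. No 2 libraries agreed within sampling noise (120 pairs, chi-square per gene at least 3.191), and each was taken as 1 sample.

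The tests were run in edgeR 4.0.16 under R 4.3.3: filterByExpr with the 4 groups (minimum 0.603 CPM), TMM factors, glmQLFit with robust estimation and glmQLFTest, Benjamini-Hochberg adjustment over all 17856 genes tested, threshold 0.05. One fit of the 4 groups gave the contrasts for males, females and their difference, with a common spread; the saline numbers used a fit of 5 groups. CPM are TMM-scaled, log2 CPM used a prior count of 2, and intervals are 2 standard errors. DESeq2 1.42.0 and limma 3.58.1 were among the alternatives. On simulated counts with 200 changed genes, over both sexes, 64.2%, 89.6% and 98.5% of genes changed 1.5-, 2- and 4-fold were recovered, with 11 false among 179 calls over 17608 genes. For the saline numbers the shares were 8.96%, 61.2% and 90.9%, with 9 false among 116 calls over 17587 genes. The simulated spread came from the fit of 5 groups, with a common mean per gene. It thus left out the difference between the saline male sets, which the real fit over both sexes holds in its spread. The shares over both sexes may therefore be too high for the real counts.

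The members and lists were chosen with earlier results of these data known. Named genes were those past the threshold, the 4 with the smallest p in each direction over both sexes, in males and in females, the 4 with the smallest p for the sexes and the saline numbers, the 3 with the highest and lowest mean CPM, and, of other lists, those called and the 3 with the smallest p over both sexes. Some genes of the other lists that this rule would name are not reported here. No table of transcript lengths was used here. Promoters were searched for 7 motifs, all reported; the window was set to the 250 bases before the start after the 300 of the table had been searched.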

Additional observations from a re-analysis of the deposited data

Results flagged for a closer look

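In 8 of 56 tests of a gene in a group of 6 males, the highest or lowest library lay further from the others than Dixon's critical value for 6 samples allows. Chance flags about 1 in 20 such groups, and the tests share libraries.

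Fentanyl male replicate 2 was low in 5 genes. Dlg1, a scaffold, had 183 CPM there against 214 CPM in the nearest fentanyl male, and Shank2, a scaffold, had 95.7 against 153 CPM. Homer2, the receptor adaptor, had 10.7 against 17.7 CPM. The adhesion genes Nlgn3 and Lrrtm2 had 67.2 against 118 CPM and 28.7 against 51.3 CPM.

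Saline male replicate 3 was high in 2 genes: Nrxn2 had 447 CPM against 319 CPM in the nearest saline male, and Lrfn2 had 20.7 against 9.11 CPM. Its mean log2 CPM of cortical and basolateral glutamatergic markers was 2.42, and the part of those cells was not tested. Ptprs had 413 CPM in fentanyl male replicate 1 against 381 CPM in the next library.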

How the results depend on the processing

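The female groups held 2 libraries each, the labels give neither litters nor the meaning of the library numbers, and the exposure fold changes depended on which saline males were used. No exposure or sex comparison called a member when any 1 library was left out. Counts of all genes called are given as higher and lower.

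Over both sexes DESeq2 called 52 and 35, voom 680 and 351 (6 members higher), the fit without saline males 1 and 2 752 and 474 (7 members higher), that without 9 to 12 1 and 3, and the fit with striatal and myelin covariates 3 lower; leaving out 1 library gave 8 to 21 and 1 to 8. In males DESeq2 called 28 and 15, voom 51 and 36, the fit without saline males 1 and 2 57 and 14 (1 member higher), that without 9 to 12 582 and 373 (2 members lower), the fit with covariates 4 higher and that of the 12 males alone 1 lower, with 4 to 8 and 0 to 2 on leaving out 1 library. In females the 4 libraries alone gave 22 and 43, DESeq2 10 and 10 and the covariates 1 higher, with 0 to 5 and 0 on leaving out 1 library. The difference between the sexes had 3 and 1 by DESeq2 and 0 to 4 and 0 to 1 on leaving out 1 library. For the sexes DESeq2 called 5 and voom 6 higher, and leaving out 1 library gave 3 and 7. For the saline numbers voom called 2838 and 2892 (2 members lower, as by DESeq2), the covariates 0 and 0 (0 members), and leaving out 1 library gave 128 to 2062 and 65 to 2236, with 1 to 15 members higher and 0 to 2 lower. The fewest members higher came without saline male replicate 2, and the most without fentanyl male replicate 2.

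These fold changes of named genes turned sign. In males without saline males 9 to 12, where 17 of the 28 did, Camk2a was at -0.19, Camk2b at -0.40, Dlg1 at -0.12, Lrrtm3 at -0.24, Homer2 at 0.019 and Shank1 at 0.019. With the covariates, Dlg1 was at -0.14, Homer2 at 0.50, Lrfn2 at 0.45 and Shank1 at 0.13 in males, and Cntnap4 at 0.13, Homer2 at 0.30 and Shank1 at 0.12 over both sexes. Voom gave Homer2 0.0056 in males and 0.012 over both sexes. Without fentanyl male replicate 2 and saline male replicate 3 together, chosen after seeing the data, Homer2 was at 0.16 and Lrfn2 at 0.11 in males, and Cntnap4 at 0.019 and Homer2 at 0.080 over both sexes. Leaving out 1 library moved Homer2 between -0.38 and 0.056 in males, -0.31 and 0.0066 over both sexes and -0.25 and 0.0050 in females, and Lrfn2 between -0.46 and 0.036 in males; the values above 0 came without saline male replicate 3, or saline female replicate 2 in females. For the saline numbers the covariates, added after seeing the data, gave Dlg2 -0.11, Dlg3 -0.058, Dlg4 -0.040, Dlgap3 -0.51 and Shank3 -0.043. The cause was not tested.

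The labels give no pairing by replicate number, and none was assumed in the main fits. Deviations of same-numbered males correlated at 0.21, 0.01, 0.16, -0.04, -0.07 and 0.06, and those of other male pairs at -0.32 to 0.35. The male deviations hold the difference between the saline male sets, so this check cannot exclude pairing. Same-numbered females were at -0.17, but with 2 libraries per group that value is uninformative. With the replicate block 2 genes were higher and 0 lower over both sexes, 3 higher in males and 0 in females, with no member called. Over the full 300 bases of the promoter table, the GC box was in 23.8% of the member promoters and 33.1% of all, CCAAT in 33.3% and 37.5%, and the NRF1 core and CAGCACC were again in 0 of the 21.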
